A study of Mus musculus with 15 samples.

Results

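In testes of mice at postnatal day 28, 48 genes had lost most of their RNA in both genotypes that carried a mutant copy of a chromosome 18 piRNA locus. They were 48 of 50051 counted features. The comparison was between 3 homozygous mutant libraries (Homo, Chr18-/-), 3 heterozygous libraries (Het, Chr18+/-) and 3 wild-type libraries (WT, Chr18+/+) of ribosome-depleted, strand-specific total RNA. All groups carry the strain label B6D2F1, an F1 hybrid background, and the labels do not say whether mice of different genotypes were littermates. Small RNA libraries enriched for piRNAs by periodate treatment exist for Homo_small and Het_small testes (3 libraries each), and no WT small RNA library was analysed here. No label states that each library came from its own animal. A p-value here therefore rests on library-to-library spread, part of which may be technical.

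The genes were chosen by level alone. Counts were divided by the library total to give CPM (counts per 1000000 counts), and a gene was kept when its mean WT level was at least 1 CPM and at least 4 times both the mean Homo and the mean Het level. Of 17327 genes at or above 1 CPM in WT testes, 58 (0.335%) met these limits, and 10 genes of other groups (Lcn2, Ptgds, Dnah11, Sult1e1, 4 Klk1 kallikreins and 2 ribosomal protein pseudogenes) were set aside by name. Because the WT, Het and Homo levels made the choice, those levels are given as a description, with no test against WT. In 46 of the 48 genes all 6 Homo and Het libraries lay below all 3 WT libraries, an order that 12.4% of the 20782 tested features showed, and nothing is read from that count since the rule used the same values. In whole-testis RNA, fewer cells of a type and less RNA per cell cannot be told apart.

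Pachytene piRNAs are short RNAs cut from long single-stranded precursors in meiotic and postmeiotic male germ cells, where they bind PIWI proteins. The testis is known for transcribing a large number of long noncoding RNAs, antisense RNAs and retrocopies, which are intronless copies of mRNAs inserted back into the genome. These classes made up most of the 48 genes. By biotype 18 were protein-coding (37.5%, against 82.1% of the other 17279 genes at or above 1 CPM in WT), 20 were long noncoding (41.7% against 12.8%: 16 lincRNA, 3 antisense and 1 processed transcript), 7 were pseudogenes (14.6% against 4.60%), and 3 were misc_RNA or snRNA. By name, 25 carried only a placeholder symbol (52.1% against 16.0%), and 16 were named genes (33.3% against 79.4%). Their median WT level was 2.88 CPM, against 15.0 CPM for the other genes, and 18 of the 48 had under 2 CPM in WT.

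The depth and the checks of the libraries were as follows. Assigned counts per RNA-seq library ranged from 25783931 to 29205925 in Homo, from 28639855 to 41513634 in Het and from 21684791 to 36936068 in WT. The precursor annotated at chr18:67029446-67066460, at the mutated locus, had 4, 6 and 3 counts in Homo libraries, 8948, 3983 and 4422 in Het libraries, and 9595, 7283 and 5609 in WT libraries. Relative to library totals its mean was 0.155 CPM in Homo, 169 CPM in Het (SD 40.7) and 263 CPM in WT (SD 7.22), an order that matches the labels. Gramd3 was the one member on chromosome 18, and its gene body ended 10.5 Mb from that precursor. Summed markers of steroid-producing Leydig cells were lower in carriers (517 to 675 CPM in Homo, 560 to 755 CPM in Het, 1105 to 1363 CPM in WT; 6 of 8 tested markers lower in each comparison with WT, Insl3 at 0 throughout). A lower sum also stood for markers of elongating spermatids (7016 to 9469 CPM in Homo, 4285 to 11164 CPM in Het, 11588 to 13462 CPM in WT, with 5 of 9 lower in Homo and 6 of 9 lower in Het). Sertoli cell sums overlapped between all groups, and 5 of 9 spermatocyte markers were higher and none lower in Homo (median log2 fold change 0.32), with 4 higher and 1 lower in Het (median 0.29). The summed spermatocyte level ran from 1952 to 2103 CPM in Homo, 1936 to 2150 CPM in Het and 1863 to 1955 CPM in WT. The part of these shifts in the values of the 48 genes was not tested.

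**Figure D1:**
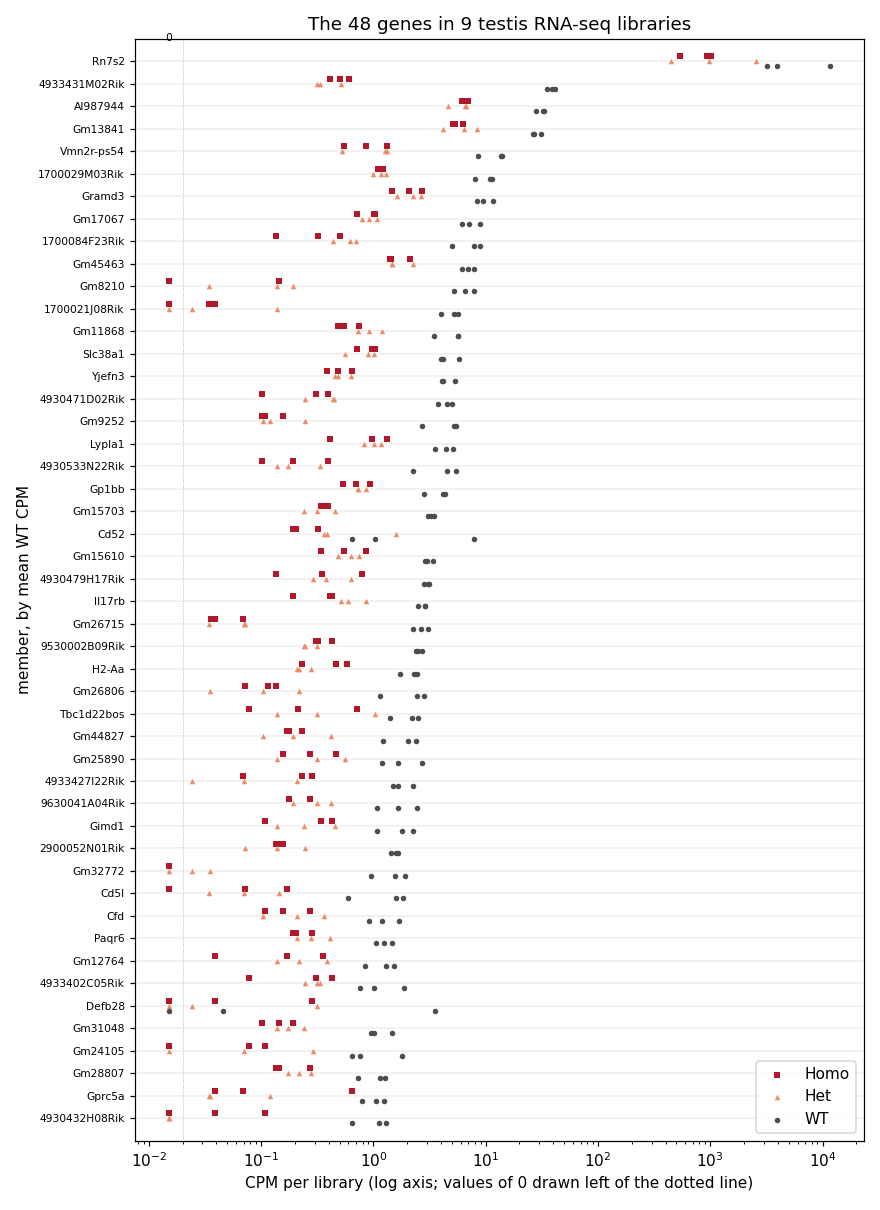
CPM of each of the 48 genes (rows, ordered by mean WT level) in each of the 9 RNA-seq libraries on a log axis; squares are Homo, triangles Het and circles WT, and a value of 0 is drawn left of the dotted line. The WT circles stand to the right of all carrier points in 46 of 48 rows, and Cd52 and Defb28 are the 2 rows where they do not.

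The long noncoding genes had deeper losses than the protein-coding members as a class, though not in every kind. Their median ratio of the WT mean to the higher of the 2 carrier means was 9.74, against 5.09 for the protein-coding members. Of the long noncoding genes 10 of 20 reached 10-fold, against 2 of 18 protein-coding members and 3 of 7 pseudogenes. The antisense members had a median of only 4.95, although the largest ratio was among them, and the processed transcript Gm45463 stood at 4.03. The pseudogenes Gm8210 and Gm9252 stood at 53.6 and 28.4. The rule chose the members by this same ratio, so the comparison of classes is a description. The highest long noncoding gene in WT was 4933431M02Rik, a lincRNA at chr6:107627774-107632549 on the plus strand. It had 0.609, 0.411 and 0.504 CPM in Homo libraries, 0.337, 0.314 and 0.519 CPM in Het libraries, and 35.1, 39.0 and 41.6 CPM in WT libraries. No library was intermediate: the 6 carrier libraries lay within 0.314 to 0.609 CPM, at 1.32% (Homo) and 1.01% (Het) of the WT mean. The largest ratio, 90.8, belonged to 1700021J08Rik, an antisense RNA inside the gene body of Hectd3, with 0, 1 and 1 counts in Homo, 1, 4 and 0 counts in Het, and 147, 152 and 113 counts in WT. Pooled over libraries the Homo level was 0.5001% of WT (95% exact interval 0.0604 to 1.82%, counting error only) and the Het level 1.05% (0.338 to 2.46%). Counts on the opposite strand, that of Hectd3, came to 241 in Homo, 341 in Het and 260 in WT.

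Gm32772 and 4930432H08Rik, both lincRNAs, were at or near 0 in carriers. Gm32772 had no count in any Homo library, 1, 1 and 0 counts in Het libraries, and 35, 51 and 34 counts in WT libraries. A floor of 3 counts over the Homo group would be 2.58% of WT, and the exact interval of its Homo level reached up to 3.22%. The Het level was 1.44% of WT, with an exact interval of 0.172 to 5.31%. 4930432H08Rik had 3, 0 and 1 counts in Homo libraries, none in Het libraries, and 24, 30 and 28 counts in WT libraries. The same floor over its Het group would be 3.16% of WT, and the exact interval of its Het level reached up to 3.97%. Both rested on under 60 counts per WT library, and without WT replicate 2 or WT replicate 3 the mean WT level of 4930432H08Rik fell below 1 CPM.

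Other lincRNAs with a ratio above 10 lay on several chromosomes. 1700084F23Rik had 0.322, 0.137 and 0.504 CPM in Homo libraries, 0.434, 0.698 and 0.623 CPM in Het libraries, and 5.04, 7.95 and 8.90 CPM in WT libraries. 4930471D02Rik averaged 0.269 ± 0.150 CPM in Homo, 0.376 ± 0.114 CPM in Het and 4.45 ± 0.658 CPM in WT (SD, n = 3 each, as for all values of this form). 4930533N22Rik averaged 0.230 ± 0.149 CPM in Homo, 0.217 ± 0.106 CPM in Het and 4.09 ± 1.63 CPM in WT. In each of these 3 genes the highest carrier library stayed below the lowest WT library. 1700029M03Rik, a lincRNA of chromosome 1 with a smaller ratio of 8.62, varied little among carriers, with 1.22, 1.10 and 1.20 CPM in Homo libraries, 0.988, 1.29 and 1.18 CPM in Het libraries, and 8.04, 11.4 and 10.8 CPM in WT libraries.

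RefSeq promoter windows (250 bases before to 50 bases after a gene's start, GRCm38.p6) were available for 22 of the 48 genes, 32 windows in all. Those of 3 of the deeply reduced lincRNAs are shown as examples that hold 1, 2 and 0 matches of CCAAT, 1 of the 3 motifs searched. Capitals mark CCAAT or, for the other strand, ATTGG. They are at chr13:66349156-66349455 on the plus strand (Gm26715), chr7:75029961-75030260 on the plus strand (4930533N22Rik) and chr13:70028299-70028598 on the minus strand (1700084F23Rik).
Gm26715: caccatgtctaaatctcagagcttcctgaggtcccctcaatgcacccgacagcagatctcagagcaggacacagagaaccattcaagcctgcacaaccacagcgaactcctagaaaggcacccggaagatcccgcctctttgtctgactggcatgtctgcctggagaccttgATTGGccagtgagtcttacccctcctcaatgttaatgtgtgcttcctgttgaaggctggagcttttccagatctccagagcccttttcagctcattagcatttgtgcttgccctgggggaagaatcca
4930533N22Rik: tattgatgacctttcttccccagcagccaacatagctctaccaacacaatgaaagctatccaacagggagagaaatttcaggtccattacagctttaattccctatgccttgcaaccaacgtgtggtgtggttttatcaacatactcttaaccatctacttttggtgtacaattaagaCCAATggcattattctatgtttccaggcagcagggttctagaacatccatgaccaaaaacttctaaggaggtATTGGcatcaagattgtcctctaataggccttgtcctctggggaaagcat
1700084F23Rik: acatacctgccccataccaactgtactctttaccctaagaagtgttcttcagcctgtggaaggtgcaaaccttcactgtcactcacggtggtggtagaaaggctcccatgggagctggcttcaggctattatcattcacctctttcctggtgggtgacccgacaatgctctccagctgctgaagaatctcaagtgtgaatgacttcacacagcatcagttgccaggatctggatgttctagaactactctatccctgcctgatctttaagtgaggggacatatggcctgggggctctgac
Searched on both strands, CCAAT stood in 10 of 32 windows (31.2%), against 37.4% of all 32851 windows. The cAMP response element TGACGTCA stood in 1 of 32 (3.12%), against 1.79%, and the TATA box TATAAA in 2 of 32 (6.25%), against 13.6%. No 2 of the 3 motifs hold the same letters, and a match is a description of the window only.

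A pair of near-identical lincRNAs, Gm26715 (chr13:66349396-66365772, plus strand) and Gm26806 (chr13:66503160-66519523, minus strand), lay within 170 kb of sequence in opposite orientation. The longest transcript of Gm26715 matched Gm26806 over 1095 aligned bases with 7 mismatches (99.3% identity). The gap-free stretch of 100 bases with the most differences, bases 458 to 557 of both transcripts, differed at the 2 bases in capitals.
Gm26715: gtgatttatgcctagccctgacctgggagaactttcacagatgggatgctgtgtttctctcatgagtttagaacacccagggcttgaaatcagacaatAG
Gm26806: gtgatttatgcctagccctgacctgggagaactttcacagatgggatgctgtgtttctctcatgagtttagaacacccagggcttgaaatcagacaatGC
Multi-mapping reads were not counted, so the counts of either gene come from reads placed at 1 site only, and reads of the identical bases may be missing from both. Gm26715 had 1, 2 and 1 counts in Homo libraries, 3, 2 and 1 counts in Het libraries, and 98, 60 and 67 counts in WT libraries. Gm26806 had 2, 4 and 3 counts in Homo libraries, 9, 1 and 3 counts in Het libraries, and 105, 65 and 25 counts in WT libraries. Both copies were thus low in every carrier library. 2410141K09Rik, a protein-coding gene 52.3 kb away and the only other tested feature between the pair, was higher in carriers: 23.5 ± 0.953 CPM in Homo, 25.4 ± 1.55 CPM in Het and 12.9 ± 0.517 CPM in WT (log2 fold change 0.81 ± 0.10 SE in Homo, edgeR adjusted p = 0.000738, and 0.87 ± 0.10 SE in Het, adjusted p = 0.000459).

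Chromosome 7 held 11 of the 48 genes (22.9%), against 7.69% of the other genes. Chromosomes 11, 19, X and Y held none, against 7.63%, 3.10%, 4.05% and 0.0810% of the other genes. With neighbours linked at up to 1 Mb, 9 members fell into 3 groups: the lincRNA pair on chromosome 13, Cd5l and Paqr6 on chromosome 3 (a span of 1011 kb), and 5 members within chr7:40373302-42727017. With a limit of 0.5 Mb, 5 members in 2 groups were left, and Gm28807, Gm17067, Cd5l and Paqr6 no longer had a linked member. At 1 Mb the chromosome 7 group, over 2354 kb, held the 5 members Gm28807, AI987944, Gm9252, Vmn2r-ps54 and Gm17067. Its region also holds vomeronasal receptor (Vmn2r) and zinc finger (Zfp) genes. AI987944, a protein-coding gene of unassigned name, had 7.02, 6.20 and 6.94 CPM in Homo libraries, 6.50, 4.57 and 6.61 CPM in Het libraries, and 27.9, 32.1 and 32.9 CPM in WT libraries. Gm17067, also protein-coding, averaged 0.922 ± 0.176 CPM in Homo, 0.931 ± 0.144 CPM in Het and 7.39 ± 1.38 CPM in WT. Carrier libraries and WT libraries were far apart in both.

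Inside the chromosome 7 group Gm9252 and Vmn2r-ps54 overlap at their ends on opposite strands. Vmn2r-ps54, a transcribed relic of a vomeronasal receptor gene, had 0.859, 0.548 and 1.32 CPM in Homo libraries, 0.530, 1.26 and 1.32 CPM in Het libraries, and 8.53, 13.6 and 13.8 CPM in WT libraries. Gm9252, a retrocopy related to Phgdh (the first enzyme of serine synthesis), had 3, 3 and 4 counts in Homo libraries, 5, 7 and 3 counts in Het libraries, and 100, 140 and 117 counts in WT libraries, a loss to 2.74% (Homo) and 3.52% (Het) of the WT mean. Gm28807, a lincRNA of 95939 bases, averaged 0.184 ± 0.0759 CPM in Homo, 0.223 ± 0.0534 CPM in Het and 1.05 ± 0.283 CPM in WT, the lowest WT level of the group. Other genes between these members gave a mixed picture. Of the 32 other tested features between the first and the last of the 5, 2 were lower and 6 higher in Homo against WT (median log2 fold change 0.15), and 3 were lower and 7 higher in Het (median 0.16). At an adjusted p under 0.05, 11.1% of all features were lower and 9.68% higher in Homo, and 12.9% lower and 11.1% higher in Het. Between Cd5l and Paqr6 on chromosome 3, 27 other features were tested, of which 10 were lower and none higher in Homo (median -0.35), and 11 lower and none higher in Het (median -0.37). Their log2 fold changes ran from -4.21 to 1.09 in Homo and from -3.02 to 0.90 in Het. The lowest in both was Rhbg, at 0.0348 CPM in Homo, 0.0938 CPM in Het and 0.726 CPM in WT, under the WT limit of 1 CPM.

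**Figure D2:**
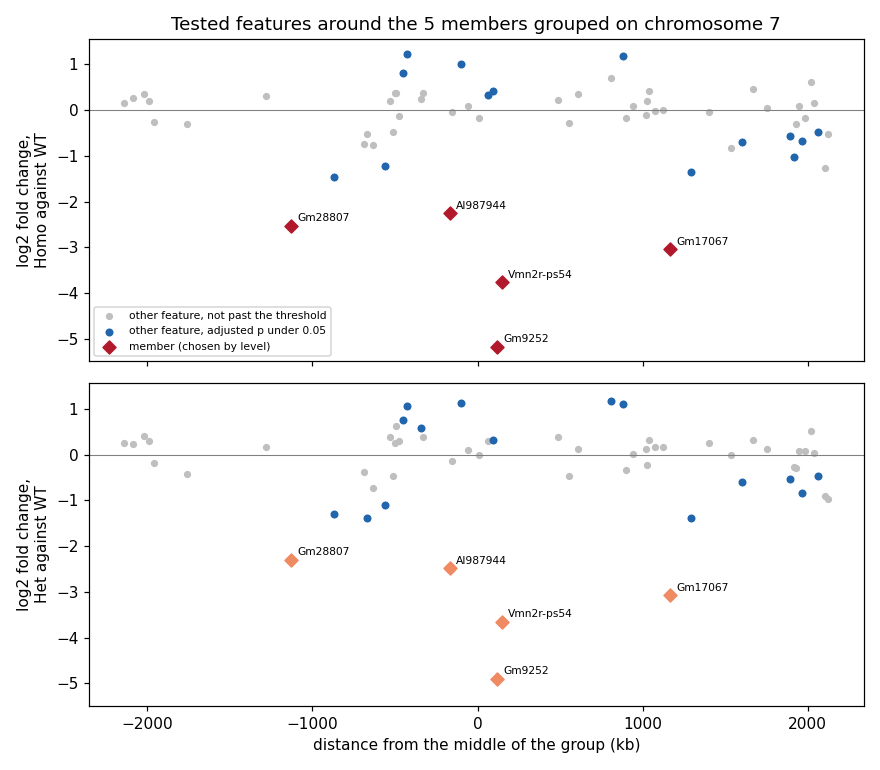
Log2 fold change against WT in Homo (upper panel) and Het (lower panel) of every tested feature within 1 Mb of the chromosome 7 group, by distance in kb from the middle of the group; diamonds are the 5 members, blue dots other features past an edgeR adjusted p of 0.05 and grey dots the rest. The rule fixed the low position of the 5 members, and the median of the 32 other features inside the group is 0.15 in Homo and 0.16 in Het.

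Retrocopies and other copies could be set against the genes they resemble. A copy of at least 90% identity over at least 50% of the member's longest transcript was annotated for 12 of the 48 genes. Gm15703 on chromosome 16 resembles Rnaseh2a, the catalytic subunit of ribonuclease H2, and Gm11868 on chromosome 4 resembles Cyb5r4, a cytochrome b5 reductase. Below, 100 bases of each are set beside the coding sequence of the parent gene, chosen as the gap-free stretch with the most differences, which stand in capitals (7 in the first pair and 4 in the second). They show how few bases a read of 50 bases has to tell copy and parent apart.
Gm15703: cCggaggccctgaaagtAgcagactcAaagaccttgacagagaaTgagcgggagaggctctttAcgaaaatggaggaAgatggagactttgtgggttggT
Rnaseh2a: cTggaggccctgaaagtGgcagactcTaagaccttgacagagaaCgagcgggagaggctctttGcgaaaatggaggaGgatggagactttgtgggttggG
Gm11868: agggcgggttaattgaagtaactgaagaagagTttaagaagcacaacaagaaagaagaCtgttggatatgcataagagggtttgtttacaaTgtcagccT
Cyb5r4: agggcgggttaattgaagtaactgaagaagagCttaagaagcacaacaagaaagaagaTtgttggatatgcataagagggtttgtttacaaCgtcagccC
Gm15703 had 11, 10 and 10 counts in Homo libraries, 10, 13 and 9 counts in Het libraries, and 129, 87 and 66 counts in WT libraries, which was 11.5% (Homo) and 10.3% (Het) of the WT mean. Rnaseh2a averaged 457 ± 22.5 CPM in Homo, 446 ± 46.7 CPM in Het and 533 ± 21.2 CPM in WT. Its log2 fold change was -0.27 ± 0.10 SE in Homo (edgeR adjusted p = 0.0608) and -0.36 ± 0.10 SE in Het (adjusted p = 0.0200), and the difference between Homo and Het did not pass (adjusted p = 1.00). Without Het replicate 3 or WT replicate 1 the Het call was lost (adjusted p = 0.0580 and 0.0539).

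Gm11868 had 0.752, 0.479 and 0.543 CPM in Homo libraries, 0.915, 1.19 and 0.727 CPM in Het libraries, and 3.49, 5.63 and 5.63 CPM in WT libraries. Cyb5r4 averaged 64.9 ± 3.61 CPM in Homo, 66.4 ± 5.48 CPM in Het and 52.7 ± 7.30 CPM in WT, and did not pass (adjusted p = 0.0829 in Homo and 0.0948 in Het). Phgdh, the parent of the chromosome 7 retrocopy Gm9252 (95.3% identity), averaged 16.4 ± 1.83 CPM in Homo, 16.8 ± 3.60 CPM in Het and 15.1 ± 0.358 CPM in WT (log2 fold change 0.07 ± 0.15 SE in Homo, adjusted p = 0.784, and 0.05 ± 0.15 SE in Het, adjusted p = 0.836). Gm15610 resembles Tma7, a translation machinery associated gene, and averaged 0.582 ± 0.261 CPM in Homo, 0.620 ± 0.131 CPM in Het and 3.08 ± 0.256 CPM in WT. Tma7 itself stood at 32.6 ± 1.10 CPM in Homo, 32.1 ± 1.29 CPM in Het and 31.4 ± 1.20 CPM in WT (log2 fold change -0.01 ± 0.10 SE in Homo, adjusted p = 0.975, and -0.08 ± 0.10 SE in Het, adjusted p = 0.604). A second retrocopy of it, Tma7-ps, fell by 0.97 ± 0.13 SE in Homo and by 0.99 ± 0.12 SE in Het on the log2 scale (adjusted p = 0.000769 and 0.000649).

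Gm8210 (chromosome 1, inside Fhl2 on the opposite strand) and Gm13841 (chromosome 5) are retrocopies of Rpl29, a protein of the large ribosomal subunit, and their 483-base transcripts are identical. They stayed among the 48 because their symbols do not begin with Rpl. Gm8210 had 4, 0 and 0 counts in Homo libraries, 8, 4 and 1 counts in Het libraries, and 290, 177 and 113 counts in WT libraries. Gm13841 had 176, 156 and 133 counts in Homo libraries, 345, 184 and 120 counts in Het libraries, and 1159, 704 and 588 counts in WT libraries. The same transcript sequence was thus left at 0.728% (Homo) and 1.87% (Het) of WT at one site and at 19.8% (Homo) and 22.3% (Het) at the other. Multi-mapping reads were not counted, so these counts are an uncertain part of the reads of either copy, and which bases they come from was not tested. Rpl29 itself differs from the 2 copies at 3 of 483 aligned bases, so its counts are uncertain in the same way. Its counted level was higher in carriers, at 21.5 ± 1.64 CPM in Homo and 20.7 ± 2.24 CPM in Het, against 14.2 ± 1.48 CPM in WT. The log2 fold change was 0.53 ± 0.14 SE in Homo (edgeR adjusted p = 0.0192) and 0.42 ± 0.14 SE in Het (adjusted p = 0.0411). These calls rested on single libraries: that in Homo was lost without Homo replicate 2, WT replicate 2 or WT replicate 3 (adjusted p = 0.0715 to 0.0797), and that in Het without any of 7 libraries (0.0510 to 0.141; WT replicate 1 and Homo replicate 3 were the exceptions). Of 10 tested relatives of the 2 retrocopies outside the group, 1 was lower and 1 higher in Homo, and likewise in Het. The higher one was Rpl29 in both.

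**Figure D3:**
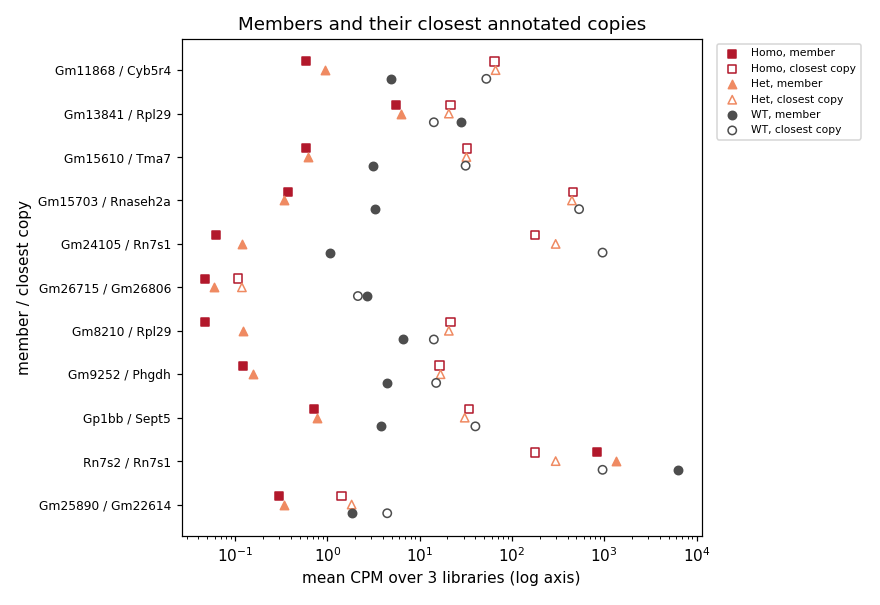
Mean CPM over 3 libraries of members (filled symbols) and of a closest annotated copy (open symbols; Gm26806 is itself a member) on a log axis, with squares for Homo, triangles for Het and circles for WT. The rule fixed the filled Homo and Het symbols to the left of the filled WT circle in every row. The open symbols of Tma7, Phgdh and Cyb5r4 lie close together. For Rn7s1 and Gm22614 the open Homo and Het symbols lie left of the open WT circle, and for Rpl29 they lie right of it.

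Rn7s2, the most abundant member, encodes 7SL RNA, the RNA of the signal recognition particle that directs new proteins to the endoplasmic reticulum. It had 927, 540 and 1008 CPM in Homo libraries, 2576, 967 and 449 CPM in Het libraries, and 11736, 3889 and 3200 CPM in WT libraries. Short features on the same strand (Gm47299 and Gm47305) cover 49.0% of its body, and reads touching both were not counted. The spread was wide within each genotype, with WT replicate 1 far above the other WT libraries and Het replicate 1 close to the lowest WT library. WT replicate 1 and Het replicate 1 also differed most from the other libraries of their groups over all features. Without WT replicate 1 or without Het replicate 3 Rn7s2 no longer met the 4-fold limit. Rn7s1, of identical sequence on the same chromosome, fell by 2.51 ± 0.44 SE in Homo (edgeR adjusted p = 0.00409) and by 1.82 ± 0.43 SE in Het (adjusted p = 0.0124) on the log2 scale. Multi-mapping reads were not counted, so the levels of Rn7s2 and Rn7s1 are an uncertain part of the reads of either copy. Rn7s6 fell by 1.91 ± 0.28 SE in Homo (adjusted p = 0.00158) and by 1.55 ± 0.27 SE in Het (adjusted p = 0.00399) on the log2 scale. Gm24514, the third tested 7SL-like gene outside the group, averaged 0.658 ± 0.146 CPM in Homo, 0.616 ± 0.174 CPM in Het and 0.646 ± 0.111 CPM in WT, and did not pass (adjusted p = 0.967 in Homo and 0.727 in Het). Gm24105, a 7SL-like gene whose symbol 2 overlapping gene IDs share, stood at 0.0617 ± 0.0554 CPM in Homo, 0.120 ± 0.151 CPM in Het and 1.06 ± 0.631 CPM in WT.

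Gm25890 is a copy of U1, the small nuclear RNA that recognises the start of introns in splicing. It had 13, 8 and 4 counts in Homo libraries, 23, 9 and 4 counts in Het libraries, and 100, 44 and 26 counts in WT libraries. Gm22614, identical over 165 bases and 2.01 kb away, averaged 1.42 ± 0.233 CPM in Homo, 1.83 ± 0.607 CPM in Het and 4.45 ± 0.980 CPM in WT (log2 fold change -1.71 ± 0.27 SE, adjusted p = 0.00245, in Homo, and -1.38 ± 0.26 SE, adjusted p = 0.00543, in Het). Of 8 tested genes outside the group with a U1-like transcript, 6 were lower and none higher in each of Homo and Het. Reads that map to several of these copies were not counted, so the level of each copy is uncertain.

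The named protein-coding members belonged to unrelated families. Lypla1, an enzyme that removes palmitate from proteins, averaged 0.902 ± 0.461 CPM in Homo, 1.01 ± 0.175 CPM in Het and 4.35 ± 0.771 CPM in WT. Gm37988 covers 99.7% of its body on the same strand, and reads in both were not counted, so the values of Lypla1 come from a small part of the gene. Slc38a1, a sodium-coupled glutamine transporter, averaged 0.904 ± 0.166 CPM in Homo, 0.819 ± 0.238 CPM in Het and 4.62 ± 0.973 CPM in WT. The next gene on chromosome 15, its paralogue Slc38a2, was higher in carriers, at 51.2 ± 3.18 CPM in Homo, 50.5 ± 1.56 CPM in Het and 35.8 ± 1.24 CPM in WT (log2 fold change 0.46 ± 0.10 SE, edgeR adjusted p = 0.00781, in Homo, and 0.39 ± 0.09 SE, adjusted p = 0.0141, in Het; 0.0560 without WT replicate 3). Gramd3, a GRAM domain gene, had 2.08, 1.47 and 2.71 CPM in Homo libraries, 2.24, 2.65 and 1.63 CPM in Het libraries, and 8.34, 9.44 and 11.7 CPM in WT libraries.

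Yjefn3, a YjeF domain gene, averaged 0.504 ± 0.130 CPM in Homo, 0.524 ± 0.0918 CPM in Het and 4.56 ± 0.703 CPM in WT. Ndufa13 covers 56.1% of its body on the same strand, where reads were likewise not counted. Tssk6, a kinase of elongating spermatids and one of their markers, overlaps it on the opposite strand and fell by 1.37 ± 0.23 SE in Homo and by 1.45 ± 0.23 SE in Het on the log2 scale (edgeR adjusted p = 0.00323 and 0.00271). Counts on the opposite strand of Yjefn3 came to 1550 in Homo, 1710 in Het and 4413 in WT, and the part of that strand in the values of Yjefn3 was not tested. Gp1bb, a subunit of the platelet receptor for von Willebrand factor, averaged 0.720 ± 0.195 CPM in Homo, 0.774 ± 0.0797 CPM in Het and 3.78 ± 0.846 CPM in WT. Sept5 covers 28.4% of the counted body of Gp1bb on the same strand, where reads were likewise not counted. In the later GENCODE M21 annotation, which the counts did not use, the Gp1bb transcript shares 1902 bases with transcripts of Sept5. Sept5 averaged 34.0 ± 1.65 CPM in Homo, 30.8 ± 2.58 CPM in Het and 40.1 ± 2.00 CPM in WT, and passed in Het (log2 fold change -0.49 ± 0.10 SE, adjusted p = 0.00722) and not in Homo (-0.30 ± 0.10 SE, adjusted p = 0.0558).

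Several members are known from immune cells or secretions. Il17rb, a subunit of the receptor for interleukin-25, averaged 0.345 ± 0.131 CPM in Homo, 0.660 ± 0.183 CPM in Het and 2.77 ± 0.215 CPM in WT. H2-Aa, the alpha chain of an MHC class II molecule, had 0.465, 0.582 and 0.233 CPM in Homo libraries, 0.217, 0.279 and 0.208 CPM in Het libraries, and 1.73, 2.31 and 2.44 CPM in WT libraries. H2-Eb1, an MHC class II beta chain 18.1 kb from it, fell by 1.29 ± 0.29 SE in Homo and by 1.16 ± 0.28 SE in Het on the log2 scale (edgeR adjusted p = 0.0114 and 0.0145). The calls were lost without Homo replicate 2 or 3 in Homo (adjusted p = 0.0501 and 0.0506), and without Het replicate 3 or WT replicate 1 in Het (0.0527 and 0.0559). H2-Ab1, the other class II beta chain nearby (13.3 kb), averaged 10.7 ± 1.76 CPM in Homo, 11.8 ± 1.46 CPM in Het and 12.6 ± 0.780 CPM in WT, and did not pass (log2 fold change -0.29 ± 0.14 SE, adjusted p = 0.157, in Homo, and -0.19 ± 0.14 SE, adjusted p = 0.334, in Het). Cd5l, a protein secreted by macrophages, had 2, 5 and 0 counts in Homo libraries, 6, 2 and 1 counts in Het libraries, and 22, 43 and 40 counts in WT libraries. The 8 macrophage markers summed to 129 to 164 CPM in Homo, 143 to 165 CPM in Het and 139 to 142 CPM in WT, with 1 lower and 1 higher in each comparison with WT.

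Cfd, complement factor D, a serine protease made by fat cells, had 3, 8 and 4 counts in Homo libraries, 15, 3 and 6 counts in Het libraries, and 63, 32 and 20 counts in WT libraries. Without Cfd, 2 of 5 tested adipose markers were lower and none higher in each comparison with WT (Fabp4 and Cidec), and the 6 other markers on the list summed to 14.9 to 16.5 CPM in Homo, 13.9 to 18.6 CPM in Het and 13.997 to 21.1 CPM in WT. Their part in the values of Cfd was not tested. Gprc5a, an orphan receptor induced by retinoic acid, had 18, 2 and 1 counts in Homo libraries, 5, 1 and 1 counts in Het libraries, and 39, 33 and 17 counts in WT libraries, so Homo replicate 1 held most of its Homo counts. Paqr6, a membrane progestin receptor, averaged 0.229 ± 0.0504 CPM in Homo, 0.299 ± 0.102 CPM in Het and 1.26 ± 0.216 CPM in WT. Gimd1, a gene with a GIMAP domain, averaged 0.292 ± 0.165 CPM in Homo, 0.280 ± 0.162 CPM in Het and 1.71 ± 0.583 CPM in WT.

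Cd52 and Defb28 owed their place to 1 WT library. Defb28, a beta-defensin, had 8, 0 and 1 counts in Homo libraries, 1, 0 and 9 counts in Het libraries, and 0, 94 and 1 counts in WT libraries. Cd52, a small surface glycoprotein of lymphocytes and of the epididymis, had 9, 6 and 5 counts in Homo libraries, 15, 11 and 46 counts in Het libraries, and 38, 212 and 14 counts in WT libraries. Crisp1, a secreted epididymal protein, stood in the same libraries, with 2.47, 0.0342 and 0.155 CPM in Homo, 0, 0.140 and 10.7 CPM in Het, and 2.17, 31.1 and 0.0922 CPM in WT. The 8 epididymal markers, with Lcn5 at 0 throughout, summed to 5.55 to 9.63 CPM in Homo, 5.90 to 19.4 CPM in Het and 4.84 to 39.1 CPM in WT. Their part in Cd52 and Defb28 was not tested. Without WT replicate 2 neither gene met the rule, and without WT replicate 2 and Het replicate 3 together 35 members were left, an alternative chosen after the data were seen.

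The values next to the 4-fold limit ran on without a gap. Just inside stood Gm45463 (4.03-fold), 4933402C05Rik (4.07-fold) and Gprc5a (4.09-fold), and just outside Gm4977 (3.90-fold), Gm12977 (3.73-fold) and the tight junction gene Cldn3 (3.72-fold), each as the WT mean over the higher carrier mean. Cldn3 averaged 1.495 ± 0.595 CPM in Homo, 1.51 ± 0.431 CPM in Het and 5.63 ± 1.41 CPM in WT. Each of the 3 genes just inside left the group when certain single libraries were left out, Gm45463 without any of 5 (WT replicate 3, Het replicates 1 and 3, Homo replicates 1 and 3). Of the 48 genes 16 had a ratio under 5 and 7 a ratio of at least 20.

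The rule set both the Homo and the Het mean at no more than 25% of WT, so a gene low in 1 genotype alone could not be a member, and the comparison of Homo with Het is given as a description. Of 47 members that passed the filter on low counts (Defb28 did not), none passed at a Benjamini-Hochberg adjusted p of 0.05 in edgeR, where 0.0289% of all features (6 of 20782) did. DESeq2 called 17 features, none of them a member, and edgeR called 18 without Het replicate 3. At an unadjusted p under 0.05 there were 3 of the 47 members, against 638 of 20782 features (3.07%). These were Il17rb (log2 fold change of Homo over Het -0.89 ± 0.33 SE), H2-Aa (0.93 ± 0.38 SE) and 4930432H08Rik, for which no fold is given because all Het libraries were at 0. The lowest adjusted p of a member was 1.00. The median log2 fold change of the 47 members was -0.12, against 0.01 over all features. By CPM, which have no TMM scaling, the Homo mean was below the Het mean in 36 of 48. Without scaling the median over all features was itself -0.044. The matching share over all features is not given, so nothing is read from the count of 36. For the abundant 4933431M02Rik the difference was 0.44 ± 0.26 SE and for AI987944 0.23 ± 0.14 SE, while for members with few counts, such as Gm8210 (-1.30 ± 0.97 SE), the SE was too wide to detect a 2-fold difference at this depth.

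**Figure D4:**
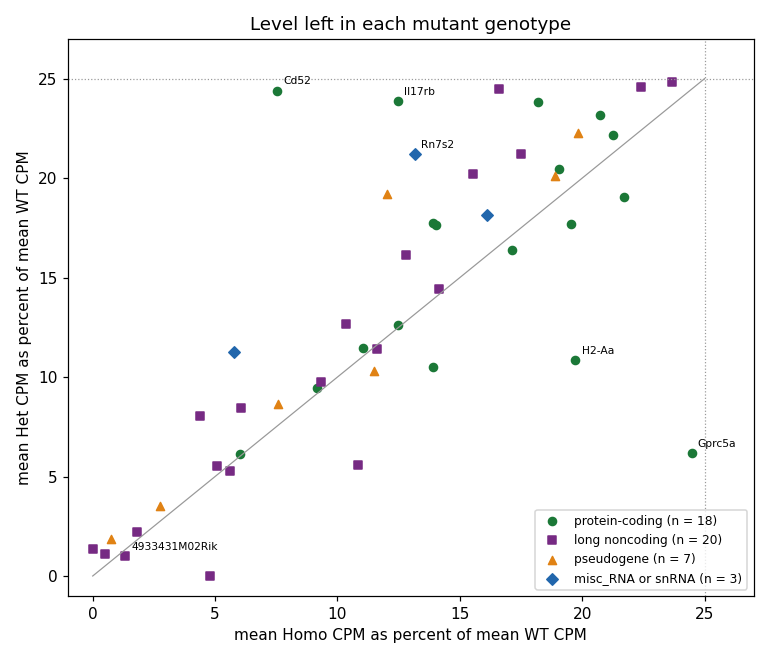
Mean Homo level (horizontal) and mean Het level (vertical) of each of the 48 genes as percent of its mean WT level, by class, with dotted lines at the limit of 25% that the rule set and a line where both are equal. Of the 48 points 36 lie above that line, a count by CPM with no share over all features beside it. The farthest from the line include H2-Aa and Gprc5a below it and Il17rb and Cd52 above it.

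Features near the 48 genes were not chosen by the rule and could be tested against WT. There were 173 tested non-members within 100 kb of 43 of the members, and 5 members had none. In Homo against WT 31 of the 173 were lower (17.9%, against 11.1% of all features) and 13 higher (7.51%, against 9.68%). In Het against WT 36 were lower (20.8%, against 12.9%) and 14 higher (8.09%, against 11.1%). The median log2 fold change of the neighbours was -0.13 in Homo and -0.15 in Het, against -0.01 (Homo) and -0.0023 (Het) over all features. No neighbour passed between Homo and Het, at a background of 0.0289%. Only 2 neighbours overlapped a member on the same strand, and 10 on the opposite strand alone. The count of lower neighbours in Homo was 20 without Homo replicate 3, and in Het it was 20 without WT replicate 1 and 23 without Het replicate 3. The count of higher neighbours in Homo was 4 to 6 without Homo replicate 2, Homo replicate 3, WT replicate 2 or WT replicate 3, and in Het it was 9 without WT replicate 3. Shares over all features in these smaller fits are not given, so the counts do not show whether the difference from the background held.

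The clearest lower neighbours lay by 3 members. Tsacc, a cochaperone of testis kinases 67.6 kb from Paqr6, averaged 35.1 ± 1.93 CPM in Homo, 36.8 ± 3.42 CPM in Het and 56.8 ± 5.63 CPM in WT (log2 fold change -0.74 ± 0.09 SE in Homo, edgeR adjusted p = 0.000538, and -0.72 ± 0.09 SE in Het, adjusted p = 0.000615). Tmem79, at 28.4 kb from Paqr6, fell by 1.43 ± 0.18 SE in Homo (adjusted p = 0.000769) and by 1.10 ± 0.18 SE in Het (adjusted p = 0.00293) on the log2 scale. The kinase gene Pim1, 82.7 kb from Tbc1d22bos, averaged 25.4 ± 0.492 CPM in Homo, 24.3 ± 5.60 CPM in Het and 46.1 ± 2.05 CPM in WT, and Sh3bgrl3, 32.3 kb from Cd52, averaged 5.15 ± 0.868 CPM in Homo, 4.91 ± 1.05 CPM in Het and 11.8 ± 1.56 CPM in WT. Both passed in each comparison with WT (Pim1 adjusted p = 0.00184 in Homo and 0.00104 in Het, Sh3bgrl3 0.00199 and 0.00134).

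Among higher neighbours were Nemf, of the ribosome quality control pathway and 4.01 kb from Rn7s2, at 76.1 ± 4.26 CPM in Homo, 73.3 ± 4.36 CPM in Het and 50.7 ± 2.88 CPM in WT (adjusted p = 0.00235 in Homo and 0.00612 in Het). Gm15821, 68.3 kb from H2-Aa, averaged 4.13 ± 1.47 CPM in Homo, 5.76 ± 1.32 CPM in Het and 1.93 ± 0.619 CPM in WT (adjusted p = 0.0243 in Homo and 0.00531 in Het). Its Homo call was lost without Homo replicate 1 or 3 or WT replicate 1 or 3 (0.0585 to 0.0974). Ces1a, a carboxylesterase gene, covers 71.3% of the body of Gm45463 on the opposite strand, and the carrier means of the 2 lay on opposite sides of their WT means. Gm45463 averaged 1.65 ± 0.409 CPM in Homo, 1.73 ± 0.466 CPM in Het and 6.97 ± 0.922 CPM in WT. Ces1a rose, to 6.94 ± 0.214 CPM in Homo and 7.47 ± 0.447 CPM in Het, against 3.54 ± 0.831 CPM in WT (log2 fold change 0.94 ± 0.15 SE, adjusted p = 0.00229, in Homo, and 0.99 ± 0.15 SE, adjusted p = 0.00182, in Het). With both strands summed the direction for Ces1a turned (-0.23 in Homo and -0.19 in Het).

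**Figure D5:**
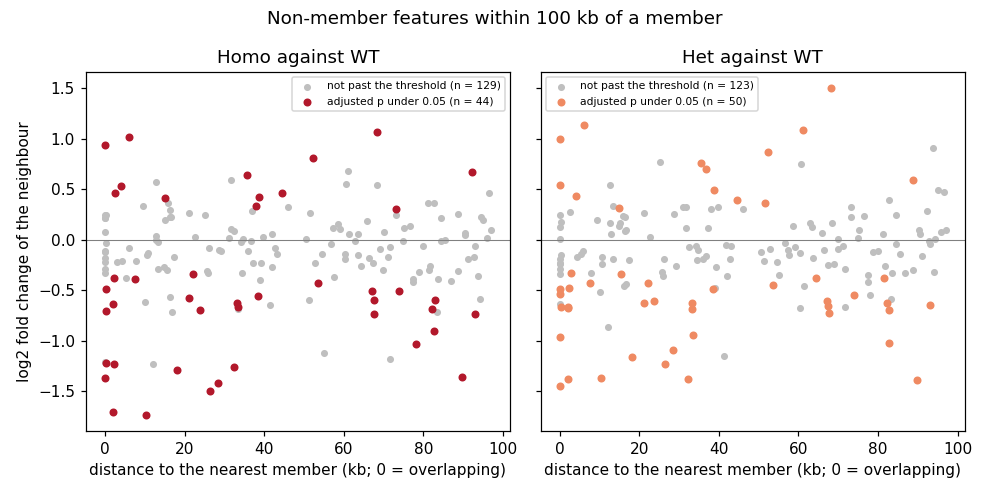
Log2 fold change against WT of 173 non-member features within 100 kb of a member, in Homo (left) and Het (right), by distance in kb to the nearest member; coloured dots passed an edgeR adjusted p of 0.05 and grey dots did not. In Homo 31 coloured dots lie below 0 and 13 above, and in Het 36 below and 14 above.

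Genes that share a symbol root with a member were also outside the rule. Of the named members, 10 had 1 to 34 other tested genes of the same symbol root, 98 in all. A shared root is a likeness of name and need not mean related genes. Of the 98, 29 were Tbc1d genes set beside Tbc1d22bos, an antisense RNA, and 34 shared only the root Il. In Homo against WT 19 were lower and 6 higher (25.5% called, against 20.8% of all features), and in Het 18 lower and 9 higher (27.6%, against 23.9%). Of the 34 genes that share the root of Il17rb, 5 were lower and 3 higher in Homo, and 4 lower and 4 higher in Het. Of the 6 other Paqr genes 2 were lower in each, and of 8 other Slc38 transporters 1 was lower and 1 higher in each. In the small RNA libraries 34 of the 48 genes had no read in any of 6 libraries and 9 had 1 to 3. Rn7s2 alone passed the filter, with 11, 9 and 10 reads in Homo_small libraries and 23, 12 and 3 reads in Het_small libraries (log2 fold change -0.23 ± 0.52 SE, edgeR adjusted p = 0.908), where 0.0279% of 3581 genes were called and 8.71% had an unadjusted p under 0.05.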

How the data were processed

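The authors' deposited files hold raw counts per feature, made with featureCounts (1.6.2 for RNA-seq and 1.6.1 for small RNA, per the file headers) over gene bodies of GENCODE M12 genes and 466 piRNA precursors; multi-mapping reads and reads in overlapping features were not counted, per the file headers. The submitters' processing notes name HISAT2 2.1.0, Bowtie2 2.2.5 and cutadapt 1.18 and the builds mm10 and mm9, without their roles. The RNA-seq reads were 50 bases, paired, from a stranded kit, per the labels' protocols, and the counts of the kit's strand were used. Library totals ranged from 21684791 to 41513634 for RNA-seq and from 939641 to 1861402 for small RNA; intervals and floors cover counting error only.

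CPM were counts over the library total. Tests used edgeR 4.0.16 (R 4.3.3; TMM scaling, filterByExpr, quasi-likelihood test, Benjamini-Hochberg adjustment, threshold 0.05) in 1 fit over all 9 libraries and 20782 features, and 1 fit over 6 small RNA libraries; SE is the log2 fold change over the root of F. DESeq2 1.42.0, other scalings, filters, strands, windows and left-out libraries were alternatives. The fits were tested on simulated data. Transcripts were compared with blastn 2.17.0 (GENCODE M21, mm10). The members and lists were chosen with earlier results of these data known. Named were the 12 highest members in WT, the 12 largest ratios among those with at least 20 counts in every WT library, members in position groups, named protein-coding members, the 3 genes on each side of the 4-fold limit and the 3 neighbours of lowest p each way; copies, relatives, markers and the genes they led to were named outside this rule, after their values were seen.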

Additional observations from a re-analysis of the deposited data

Results flagged for a closer look

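On the strand opposite to the kit's, which the comparisons do not use, the body of Gm45463 held 6.95 CPM in Homo, 7.47 CPM in Het and 3.39 CPM in WT (means of 3 libraries), above the level of Gm45463 itself in Homo and Het. Ces1a is annotated on that strand over 71.3% of the body.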

How the results depend on the processing

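The 48 members became 20 with an 8-fold limit and 30 with a WT mean of at least 2 CPM, and 42 to 51 with 1 library left out. With both strands summed there were 39, of which 34 were shared. Homo against Het gave 17 calls with DESeq2, 13 with no filter and 4 to 18 with 1 library left out, against 6, and no member passed in any. Lower neighbours in Homo numbered 20 within 50 kb and 145 within 500 kb (20 to 34 with 1 library left out, 31 in the main comparison), and higher ones 45 within 500 kb (4 to 13, against 13). Lower neighbours in Het numbered 179 within 500 kb (20 to 34, against 36), and higher ones 9 within 50 kb and 47 within 500 kb (9 to 13, against 14). Wider windows hold more features, and the numbers tested in them are not given, nor are the shares over all features with 1 library left out. Closest copies past the threshold in Homo numbered 2 with DESeq2, 3 with only the groups compared and 0 to 2 with 1 library left out, against 1, and in Het 1 with only the groups compared and 1 to 4, against 3. Ces1a reversed with both strands summed, to -0.23 in Homo and -0.19 in Het, a sum that includes Gm45463. In the small RNA libraries 43 genes passed with no filter, 0 with the replicate block and 0 to 617 with 1 library left out (617 without Het_small replicate 1), against 1, and no member passed. Same-numbered small RNA libraries had deviations correlated at -0.15, 0.0027 and -0.082. The labels do not say whether such libraries share more than a number, and these values cannot exclude it. Other causes were not tested. Members with few counts in carriers limit the precision of ratios: that of 1700021J08Rik ran from 60.5 to 204 with 1 library left out.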
